A study of Mus musculus with 2 samples.

Results

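The genes described here are 7 members of the mouse Ms4a family (Ms4a1, Ms4a4b, Ms4a4c, Ms4a6b, Ms4a6c, Ms4a6d and Ms4a7), chosen by name out of 27998 genes in the feature table, where each has 1 row. Family members encode small membrane proteins that cross the membrane repeatedly and sit at the surface or in vesicles of blood cells. Ms4a1 encodes CD20, the B cell surface protein that therapeutic antibodies target. Ms4a4b and Ms4a6b encode proteins of T cells that associate with the co-stimulatory receptor GITR. Ms4a6d and Ms4a7 are known from macrophages, Ms4a7 among them as a marker of macrophages that settle at the borders of the brain. Interferons act on myeloid cells through surface receptors that switch on a shared set of genes, and Usp18, an interferon-induced protease, removes ISG15 from proteins and restrains the type I interferon receptor.

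Subcutaneous B16F10 tumors, a melanoma line of C57BL/6 mice, were grown for 14 days in C57BL/6 hosts of genotype Usp18f/f (control) or Usp18f/f LysM-Cre, in which Cre is expressed from the Lyz2 locus, a gene of myeloid cells. Both groups carry the floxed Usp18 alleles and differ by Cre. Host age and sex are not given in the sources used here. For each group, live CD45+ cells of 4 tumors were pooled into 1 library (10x Genomics 3' chemistry), so there is no replicate check: no test between the libraries was made, and every interval below is a 95% interval that covers counting error only, because mice cannot be told apart within a pool.

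The control library held 7754 barcodes and 43412346 UMIs (unique molecular identifiers, the counted transcript molecules), and the library labelled Usp18f/f LysM-Cre held 6063 barcodes and 48167632 UMIs. Filters kept 6654 and 5460 cells, with 8 barcodes shared by the libraries, 5 of them among kept cells. Levels are in CPM: a class's UMIs for the gene, divided by all UMIs counted in that class and library, times 1000000. Usp18 went against the label of the second library: in mononuclear phagocytes with few C1q transcripts it stood at 16.2 CPM in control and 136 CPM in the library labelled knockout, and in those with many C1q transcripts at 21.1 and 73.6 CPM. Counts at the 3' end do not show whether the floxed exons were present. Lyz2 went with the label, at 11354 against 28.5 CPM in the first of these classes and 7892 against 12.5 CPM in the second. Cells with Xist and no Y-linked transcript numbered 1477 in control and 3515 in the other library, and cells with Y-linked transcripts and no Xist numbered 2575 and 566, so the pools held different proportions of female and male cells. Values within each sex are given for the phagocytes, and in part for other classes, mainly where they turn a direction or end a call.

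The 7 genes lie within 355 kb of chromosome 19 on GRCm38 (positions 11249675 to 11604849, GENCODE M21). Ms4a1 (11249675 to 11266241), Ms4a7 (11321039 to 11336146) and Ms4a6d (11586604 to 11604849) are on the minus strand. Ms4a4c (11404770 to 11427246), Ms4a4b (11443553 to 11467055), Ms4a6c (11469366 to 11482192) and Ms4a6b (11516512 to 11531256) are on the plus strand. Promoters of 5 members were found in the RefSeq table (GRCm38.p6). The 250 bases before the start are printed for both pairs of plus-strand paralogs. The members of each pair are alike in sequence and unlike in their transcript levels in T cells. For Ms4a4b (chr19:11443308-11443557, plus strand) and Ms4a4c (chr19:11407411-11407660, plus strand) the capitals mark their longest shared run of 20 bases, and 117 of 133 aligned columns were identical (88.0%).
Ms4a4b: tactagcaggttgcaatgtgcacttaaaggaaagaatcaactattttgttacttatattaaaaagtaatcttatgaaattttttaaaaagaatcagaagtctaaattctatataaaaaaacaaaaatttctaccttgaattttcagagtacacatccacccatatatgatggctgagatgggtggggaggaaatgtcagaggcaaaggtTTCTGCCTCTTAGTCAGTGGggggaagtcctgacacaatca
Ms4a4c: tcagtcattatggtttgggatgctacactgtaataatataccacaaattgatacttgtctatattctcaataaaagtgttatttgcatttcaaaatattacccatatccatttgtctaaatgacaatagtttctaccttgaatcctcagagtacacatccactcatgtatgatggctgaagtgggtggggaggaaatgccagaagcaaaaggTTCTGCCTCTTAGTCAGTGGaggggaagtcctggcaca
For Ms4a6b (chr19:11518309-11518558, plus strand) and Ms4a6c (chr19:11469118-11469367, plus strand) 148 of 180 aligned columns were identical (82.2%), with a longest shared run of 48 bases. Here the capitals mark matches to GAAANNGAA, core letters of the element bound by interferon regulatory factors, and to AGGAAGT, letters bound by ETS factors such as PU.1, on either strand.
Ms4a6b: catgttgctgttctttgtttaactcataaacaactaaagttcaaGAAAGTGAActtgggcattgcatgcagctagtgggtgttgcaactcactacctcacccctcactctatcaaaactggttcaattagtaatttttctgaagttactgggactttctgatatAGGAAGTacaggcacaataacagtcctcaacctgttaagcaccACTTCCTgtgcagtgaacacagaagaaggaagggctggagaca
Ms4a6c: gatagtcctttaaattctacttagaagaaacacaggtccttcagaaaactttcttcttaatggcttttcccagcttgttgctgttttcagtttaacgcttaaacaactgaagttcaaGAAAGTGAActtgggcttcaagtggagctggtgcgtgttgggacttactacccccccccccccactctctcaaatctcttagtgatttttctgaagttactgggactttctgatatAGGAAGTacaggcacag
GAAANNGAA begins 206 bases before the start in Ms4a6b and 133 bases before it in Ms4a6c, in both as GAAAGTGAA. It was also found in the Ms4a7 windows, so 3 of the 5 genes hold it, and 8.56% of all 32851 promoters of the same 300 bases (250 before and 50 after the start) do. The count is per gene and the share per promoter. Ms4a7 has 2 windows, and the matches in Ms4a6b and Ms4a6c lie in related sequence, so these are not like for like. AGGAAGT was found in Ms4a6b and Ms4a6c, and in 9.35% of all promoters. The longer GAAANNGAAA, which contains GAAANNGAA, was searched on both strands and was in none of the 5 genes' windows (3.44% of all promoters). These are matches of letters only, and their absence from a window says nothing of a factor.

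Reads near the 3' end can be shared between paralogs. Over the last 500 bases of each member's longest transcript, 11.8% of the 50-base words of Ms4a4c also occurred in Ms4a4b, and 10.4% of those of Ms4a6c occurred in Ms4a6b. No other pair of members shared a word in that window. Whether reads were assigned to the wrong paralog was not tested.

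Cells were placed in classes by lineage markers that hold no Ms4a gene and no gene of the interferon lists used below, and mononuclear phagocytes (cells with Csf1r, Adgre1, Cd68 and like markers) were divided at 1000 CPM of C1qa, C1qb and C1qc, subunits of complement C1q that mark macrophages. The C1q-low class held 996 and 1250 cells (control first, as throughout) and the C1q-high class 694 and 1154. Monocyte markers were higher in the C1q-low class, with Chil3 at 1044 and 1148 CPM against 94.6 and 135 CPM, and the macrophage marker Mrc1 was higher in the C1q-high class, at 725 and 713 CPM against 180 and 295 CPM. The boundary runs through a continuum: 91 of 1690 phagocytes (5.38%) and 189 of 2404 (7.86%) lay between 500 and 2000 CPM of C1q. B cells (1415 and 432), T cells (1375 and 822), NK cells (271 and 211), cDC1 (130 and 101), cDC2 (99 and 66) and migratory dendritic cells (117 and 118) are the other classes compared. Plasmacytoid dendritic cells (88 and 56) and cells with melanoma markers (147 and 363) entered the class levels and the search for similar patterns. Cells with markers of 2 lineages were left out (680 and 717), and 525 of these lay between cDC2 and mononuclear phagocytes.

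Ms4a1 was a transcript of B cells and Ms4a4b one of T and NK cells. Ms4a1 stood at 1004 CPM (963 to 1046) in control B cells and 943 CPM (877 to 1013) in B cells of the other library. Across T, NK, phagocyte and dendritic cell classes its level was between 0 and 2.66 CPM in control and between 0 and 11.8 CPM in the other library, where the highest of these values is 3 UMIs in plasmacytoid dendritic cells. With cells thinned to 1000 UMIs apiece, 58.4% of control B cells and 58.7% of B cells of the other library held an Ms4a1 UMI, against 0.148% and 0% of T cells. The 0 among 802 T cells allows up to 0.374% (3 cells) with an Ms4a1 UMI at this depth. Without thinning, 69.6% and 75.9% of B cells held one.

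Ms4a4b was highest in NK cells, at 1352 CPM (1267 to 1441) and 1281 CPM (1202 to 1365). T cells followed at 1039 CPM (1008 to 1070) and 1117 CPM (1079 to 1155). The NK level was 1.30-fold (1.21 to 1.40) that of T cells in control and 1.15-fold (1.07 to 1.23) in the other library. B cells were far lower, at 51.2 and 34.0 CPM. Among T cells the level differed by subset. CD8 T cells (542 and 340 cells) held 1219 and 1393 CPM, and CD4 T cells without Foxp3 (263 and 104 cells) held 1057 CPM in each library. T cells with a Foxp3 UMI, the transcript that defines regulatory T cells, held 129 CPM (98.7 to 166) in 111 control cells and 236 CPM (189 to 292) in 84 cells of the other library. The CD4 T cells without Foxp3 were thus 8.20-fold (6.30 to 10.8) and 4.47-fold (3.51 to 5.74) higher than the Foxp3 T cells, and the intervals of the groups do not overlap in either library.

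Ms4a6b crossed lineages. Control T cells held the highest level, 502 CPM (481 to 524), followed by C1q-high phagocytes at 220 CPM and C1q-low phagocytes at 215 CPM, which did not differ beyond counting error. In the library labelled knockout, C1q-low phagocytes (572 CPM, 554 to 590) and T cells (571 CPM, 545 to 599) were level and C1q-high phagocytes stood at 328 CPM. NK cells were lower than T cells in both libraries, at 140 and 156 CPM, so the T cell level was 3.60-fold (2.93 to 4.45) and 3.66-fold (3.03 to 4.45) that of NK cells, the opposite order to Ms4a4b. Foxp3 T cells had less Ms4a6b than the other CD4 T cells, at 277 against 621 CPM and 349 against 823 CPM, a 2.24-fold and 2.36-fold difference. The fold between these subsets was smaller for Ms4a6b than for Ms4a4b, and the intervals of the folds do not overlap.

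**Figure D1:**
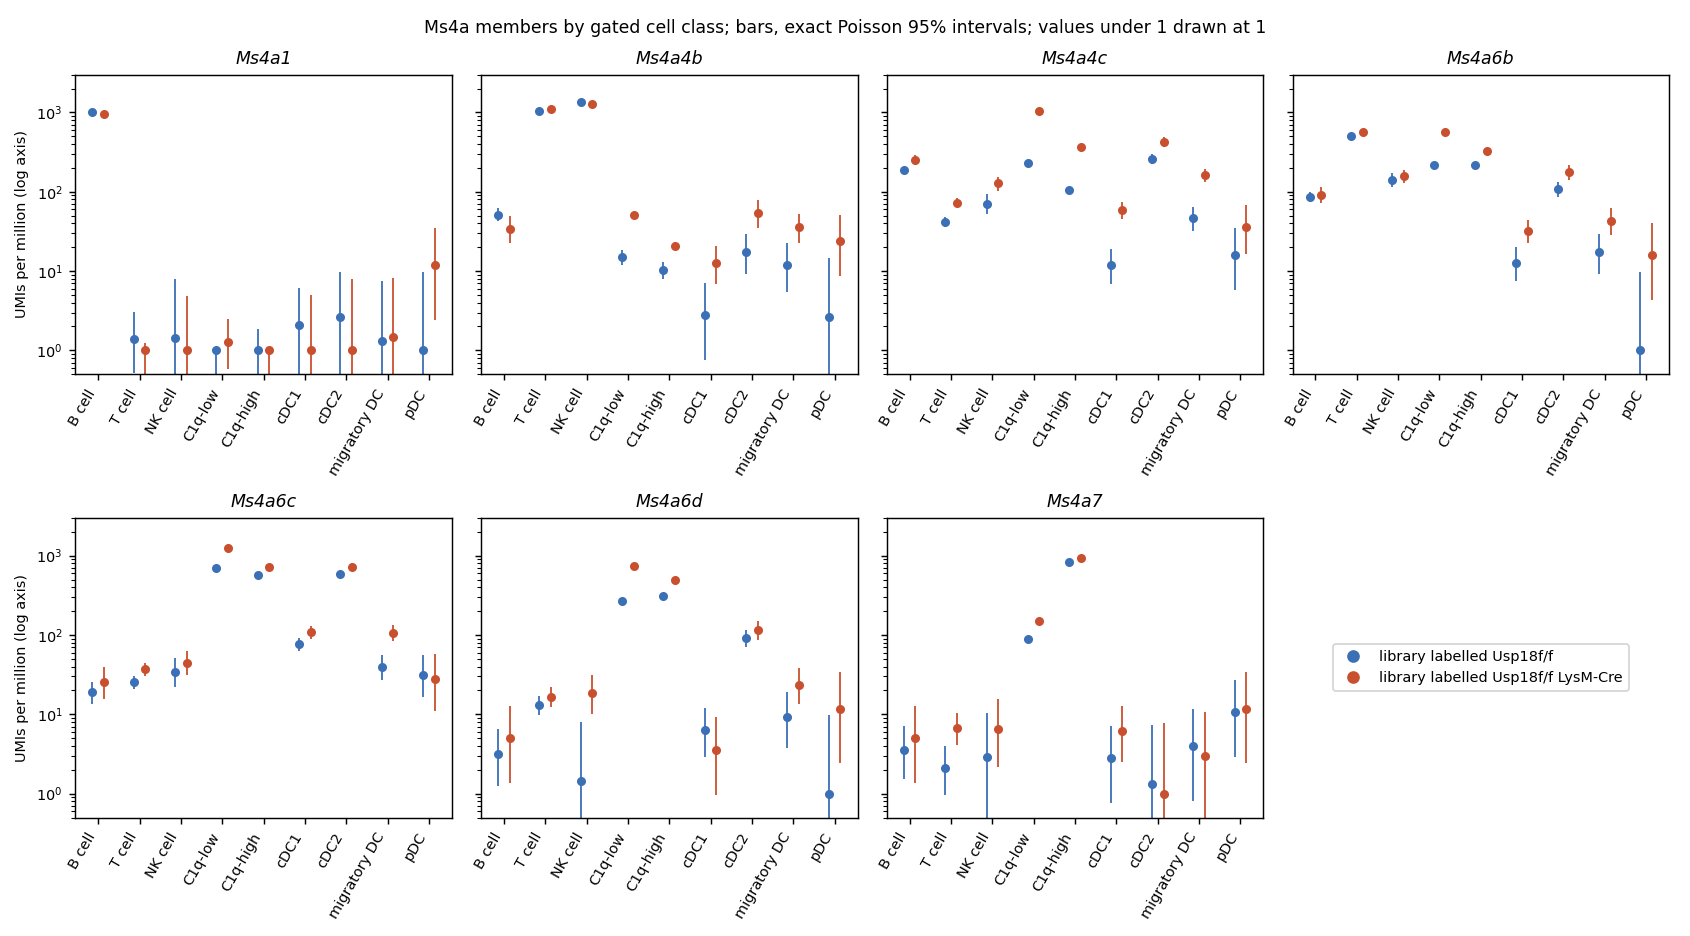
Level of each member by gated cell class in the library labelled Usp18f/f (blue) and the library labelled Usp18f/f LysM-Cre (red), in CPM on a log axis, with exact Poisson 95% intervals for counting error. Ms4a1 stands near 1000 in B cells alone, Ms4a4b in T and NK cells, and Ms4a7 in C1q-high phagocytes, while Ms4a4c is above 100 in both phagocyte classes, cDC2 and B cells of each library.

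Ms4a6c, Ms4a6d and Ms4a7 were transcripts of phagocytes, and Ms4a6c also of cDC2. Ms4a6c stood at 709 CPM (687 to 731) in control C1q-low phagocytes, 584 CPM (530 to 641) in cDC2 and 566 CPM (549 to 584) in C1q-high phagocytes, where the last pair overlap. The corresponding levels in the library labelled knockout were 1238, 718 and 717 CPM. cDC1, the other conventional dendritic cell class, held 76.8 and 108 CPM. Ms4a6d stood at 266 and 745 CPM in C1q-low phagocytes, 311 and 487 CPM in C1q-high phagocytes and 91.8 and 115 CPM in cDC2. The order of the phagocyte classes therefore differed between the libraries: C1q-high was 1.17-fold (1.10 to 1.25) higher in control, and C1q-low was 1.53-fold (1.48 to 1.59) higher in the other library. In T and B cells Ms4a6d lay between 3.14 and 16.7 CPM. In T cells that was 4.48% and 2.90% of the phagocyte level, beside 2.39% and 2.96% for the summed phagocyte markers, and whether free RNA contributed was not tested.

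Ms4a7 separated the phagocyte classes in both libraries. C1q-high phagocytes held 828 CPM (806 to 849) and 924 CPM (907 to 940.5), and C1q-low phagocytes 88.6 CPM (81.1 to 96.6) and 152 CPM (143 to 161). C1q-high was 9.34-fold (8.53 to 10.2) higher in control and 6.09-fold (5.72 to 6.49) higher in the other library. In cDC2 the summed phagocyte markers stood at 26.5% and 20.4% of the phagocyte level and Ms4a6c at 92.7% and 79.7%, yet 1 UMI of Ms4a7 was counted in control and 0 in the other library. Along the C1q axis, leaving the C1q genes out of the total, Ms4a7 was at 79.7 CPM in control phagocytes without a C1q UMI, 182 CPM at 1000 to 3000 CPM of C1q, 604 CPM at 3000 to 10000 and 1335 CPM above 10000. The values in the library labelled knockout were 140, 344, 653 and 1364 CPM, so the values lay closest at the upper end. Ms4a4c ran the other way. It was at 234 CPM in control phagocytes without a C1q UMI and 68.7 CPM above 10000 CPM of C1q, and at 1005 and 178 CPM in the library labelled knockout. Ms4a6d did not vary in this way in control (263 CPM without a C1q UMI and 310 CPM above 10000), whereas in the other library it stood at 707 and 393 CPM. Cells with more C1q were also deeper, with a median of 5431 UMIs in the lowest and 9686 in the highest control bin.

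**Figure D2:**
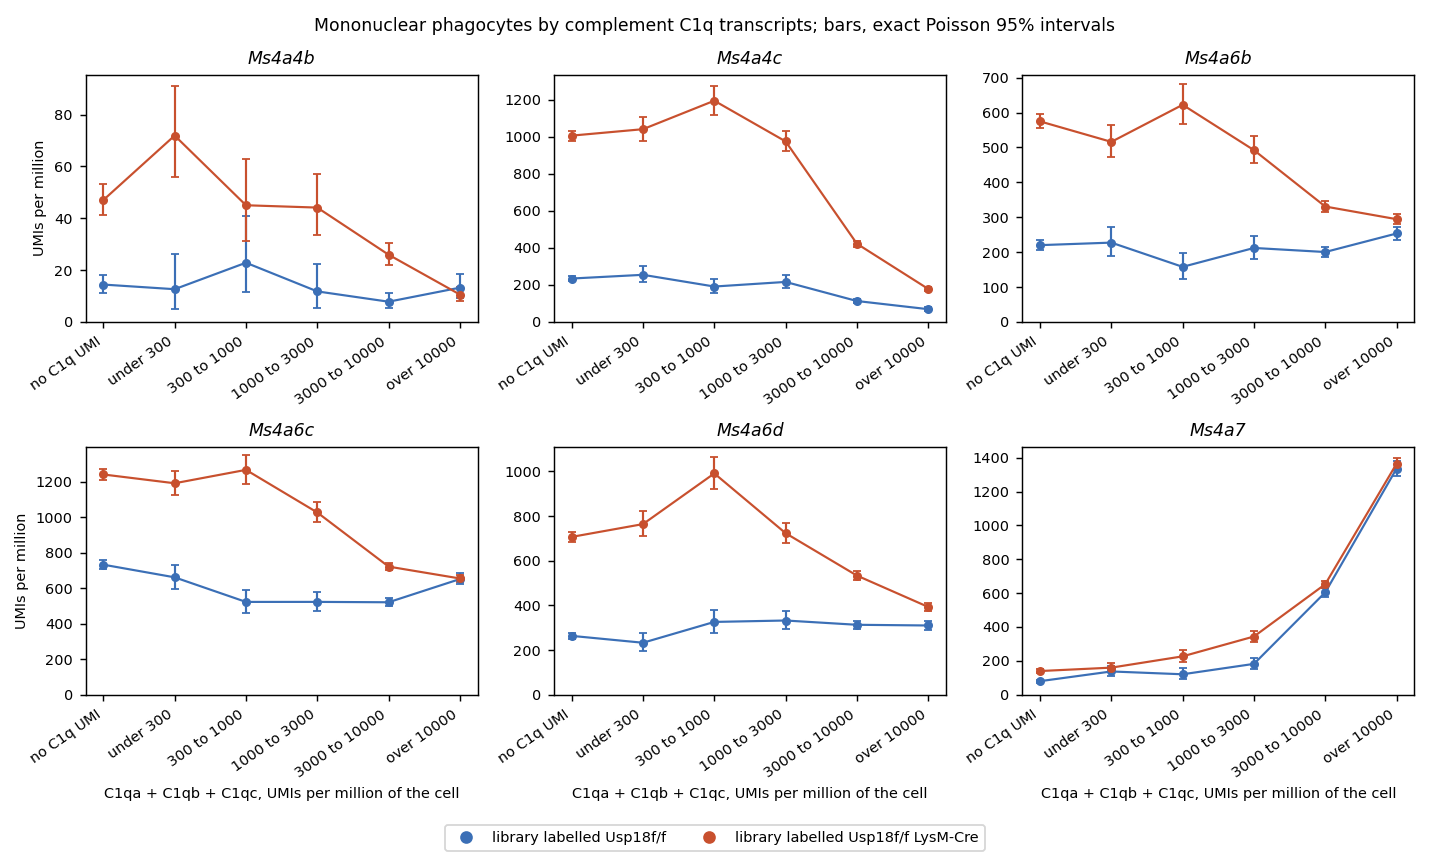
Level of 6 members (CPM, with exact Poisson 95% intervals) in mononuclear phagocytes binned by their C1qa, C1qb and C1qc transcripts, for the control library (blue) and the library labelled Usp18f/f LysM-Cre (red). Ms4a7 is at 1335 and 1364 in the highest bin, whereas the libraries lie apart for Ms4a4c in each bin.

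Ms4a4c was found in phagocytes, cDC2 and B cells, and at lower levels in T and NK cells. In control it stood at 258 CPM (223 to 297) in cDC2, 232 CPM (220 to 245) in C1q-low phagocytes and 186 CPM (168 to 205) in B cells, where the first and second overlap. It was lower in C1q-high phagocytes (106 CPM), NK cells (70.6 CPM), migratory dendritic cells (46.4 CPM), T cells (41.8 CPM) and cDC1 (11.9 CPM). C1q-low phagocytes led in the other library, at 1030 CPM (1007 to 1055), followed by cDC2 at 423 CPM, C1q-high phagocytes at 368 CPM and B cells at 253 CPM. The B cell level was 114% and 42.2% of that of all phagocytes, while the summed phagocyte markers in B cells were at 7.64% and 7.19% of the phagocyte level. Shares of cells with a UMI after thinning gave the same order for the phagocytes, with 19.2% and 51.6% of C1q-low and 10.5% and 27.4% of C1q-high cells (48.1%, 83.6%, 35.2% and 59.7% without thinning), against 3.70% and 6.61% of T cells.

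All 6 members with enough UMIs were higher in the library labelled knockout in both phagocyte classes, and Ms4a4c by the widest margin, although within cells of 1 sex Ms4a7 (Xist, both classes) and Ms4a4b and Ms4a6c (Y-linked transcripts, C1q-high) were not. Differences are log2 ratios after 5 CPM were added to each level, and genes under 20 UMIs in the sum of the libraries were not counted, Ms4a1 in phagocytes among them. In the C1q-low class 4 of 6 members (Ms4a4b, Ms4a4c, Ms4a6b and Ms4a6d) were at least 2-fold higher on this scale, where 1.74% of 10318 genes were, and 0 were at least 2-fold lower. The members' median log2 ratio was 1.43, beside -0.05 over all genes. In the C1q-high class 1 of 6 (Ms4a4c) was at least 2-fold higher, where 0.702% of 11104 genes were, with a median of 0.60 beside -0.02. Of the interferon-stimulated list (33 genes such as Ifit1, Isg15 and Rsad2, with no Ms4a gene and without Usp18; 32 measured), 30 of 32 were at least 2-fold higher in the C1q-low class (median log2 ratio 1.93) and 20 of 32 in the C1q-high class (median 1.19).

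Ms4a4c was 4.43-fold higher (4.18 to 4.70) in C1q-low phagocytes and 3.45-fold higher (3.20 to 3.74) in C1q-high phagocytes. Ms4a6d was 2.81-fold (2.65 to 2.97) and Ms4a6b 2.65-fold (2.49 to 2.83) higher in the C1q-low class, against 1.56-fold and 1.49-fold in the C1q-high class. Ms4a6c was 1.75-fold (1.68 to 1.81) and 1.27-fold (1.22 to 1.32) higher, the latter 1.42-fold in cells with Xist and 0.98-fold (0.92 to 1.05) in cells with Y-linked transcripts. Ms4a7 was 1.71-fold (1.54 to 1.91) higher in the C1q-low and 1.12-fold (1.08 to 1.15) higher in the C1q-high class, the lowest ratio in each, with an interval that overlaps that of Ms4a6c in the C1q-low class. With phagocytes of the cluster richest in interferon-stimulated transcripts left out (5 in control and 184 in the other library, led by Ifit1bl1, Rsad2 and Cxcl10), a choice made after seeing the data, the log2 ratio of Ms4a4c was 1.85 in place of 2.12 in the C1q-low and 1.29 in place of 1.74 in the C1q-high class. With classes taken from Leiden clusters in place of the gate, the log2 ratio of Ms4a4c in the C1q-high class was 1.05, and that of Ms4a7 in the C1q-low class was 1.36 in place of 0.74.

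Ms4a4b, the T and NK cell member, was low in phagocytes: 14.9 and 50.2 CPM in the C1q-low and 10.2 and 20.9 CPM in the C1q-high class, 3.36-fold (2.64 to 4.30) and 2.05-fold (1.57 to 2.69) higher in the library labelled knockout before the added 5 CPM. In C1q-high cells it was 3.09-fold (1.77 to 5.91) higher with Xist and 0.74-fold (0.42 to 1.28) with Y-linked transcripts, and subtracting 5% free RNA moved its log2 ratio from 0.77 to 1.54 there and from 1.47 to 2.11 in C1q-low cells. In C1q-low phagocytes this was 1.44% and 4.49% of the T cell level, while the summed T cell markers stood at 0.547% and 0.722% of theirs. Counted beside its paralog, Ms4a4b had 86 UMIs for 1338 of Ms4a4c in control C1q-low phagocytes (6.43%) and 350 for 7190 in the other library (4.87%), and 9.57% and 5.67% in the C1q-high class. The part of shared paralog sequence in these counts was not tested.

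**Figure D3:**
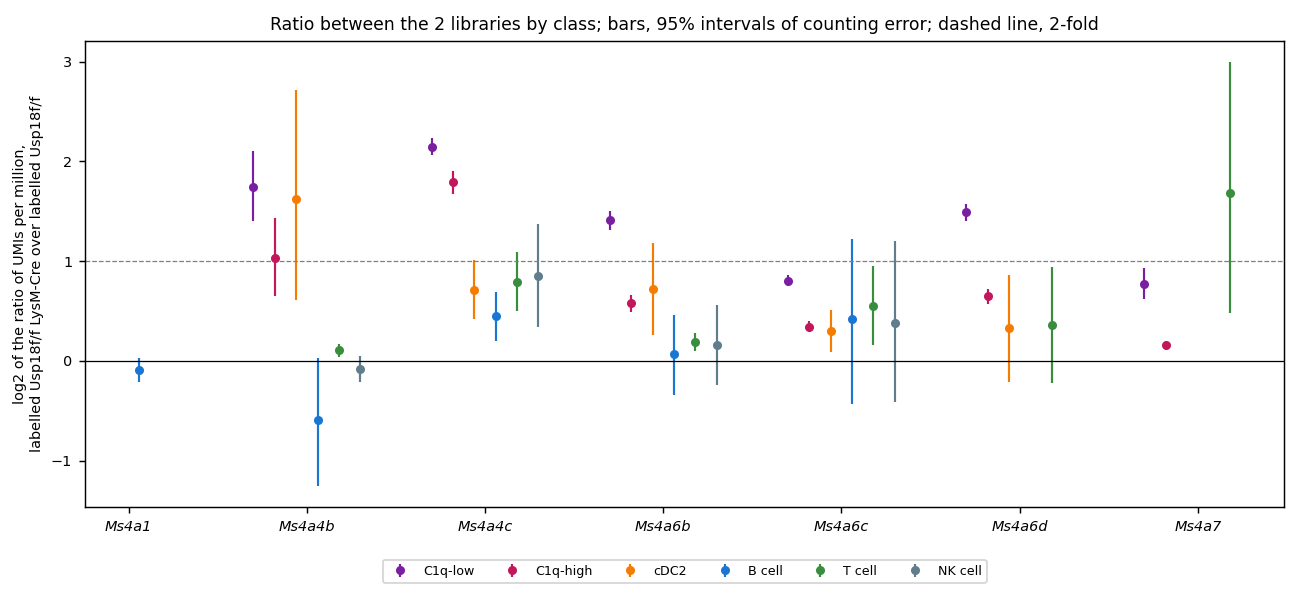
log2 of the ratio of CPM, library labelled Usp18f/f LysM-Cre over library labelled Usp18f/f, for each member with at least 20 UMIs in 6 classes, with 95% intervals of counting error (no value added). The C1q-low points lie above the dashed 2-fold line for Ms4a4b, Ms4a4c, Ms4a6b and Ms4a6d, and Ms4a1 in B cells and Ms4a4b and Ms4a6b in T cells lie between 0.94-fold and 1.14-fold.

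The lineage members lay close to equality in the lymphocyte classes that hold them, with larger ratios in T cell subsets. Ms4a1 in B cells was 0.94-fold (0.86 to 1.02), Ms4a4b in T cells 1.08-fold (1.03 to 1.12) and in NK cells 0.95-fold (0.87 to 1.04), and Ms4a6b in T cells 1.14-fold (1.07 to 1.21). Ms4a4b in Foxp3 T cells was 1.83-fold (1.30 to 2.59) and Ms4a6b in CD4 T cells without Foxp3 1.32-fold (1.12 to 1.56) higher. In B cells, where it is low, Ms4a4b was 0.67-fold (0.42 to 1.02). The direction of Ms4a1 turned in B cells with Y-linked transcripts (1.10-fold, 0.86 to 1.39) and in cells with at most 5% mitochondrial UMIs (log2 ratio 0.45). Within cells with Xist, Ms4a4b and Ms4a6b in T cells were at log2 ratios of -0.094 and -0.079, and within cells with Y-linked transcripts at 0.30 and 0.34. In B cells 0 of 5 members tested were at least 2-fold higher (0.39% of all genes), in T cells 0 of 6 (0.491%) and in NK cells 0 of 4 (2.18%). Among T cell subsets the count was 0 of 5 in CD8 T cells (0.465%). It was 1 of 4 in CD4 T cells without Foxp3 (1.76%), Ms4a4c at 2.97-fold (1.47 to 6.15) on 15 and 22 UMIs. In Foxp3 T cells it was 1 of 3 (2.14%), Ms4a6c at 5.63-fold (2.27 to 16.7) on 6 and 26 UMIs. Ms4a4c was 1.36-fold (1.15 to 1.62) higher in B cells, 1.74-fold (1.42 to 2.13) in T cells and 1.80-fold (1.26 to 2.60) in NK cells. Within B cells with Xist it was 1.10-fold (0.86 to 1.41), and within NK cells with Xist 3.27-fold (1.44 to 9.19) on 6 control UMIs. Of the 96 Ms4a4c UMIs in NK cells under the knockout label, 23 came from 1 cell. The T cell direction of Ms4a4c turned in cells with 2 Y-linked UMIs (log2 ratio -0.61), and the NK cell direction turned after thinning (-0.26). Summed phagocyte markers stood at 115 and 163 CPM in T cells and 114 and 151 CPM in NK cells. In C1q-low phagocytes they stood at 4594 and 5868 CPM. Ms4a4c over all phagocytes was at 163 and 600 CPM. Whether free RNA of phagocytes contributed to Ms4a4c in T and NK cells was not tested.

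Several dendritic cell values rest on few UMIs of the member or on single cells. In cDC2, 1 of 5 members (Ms4a4b) was at least 2-fold higher (1.96% of all genes), where 1 cell gave 7 of the 25 UMIs counted under the knockout label, and Ms4a4c was 1.64-fold higher (1.34 to 2.01). In cDC1, 2 of 3 members (Ms4a4c and Ms4a6b) were at least 2-fold higher (0.807% of all genes), but 53.8% of the 65 Ms4a4c UMIs of the library labelled knockout came from 1 cell. In migratory dendritic cells 5 of 5 members were at least 2-fold higher (2.26% of all genes), among them Ms4a4c at 46.4 and 161 CPM. There, 45.7% of the 35 control Ms4a4c UMIs came from 1 cell. Single cells also gave 11 of the 30 control Ms4a6c UMIs and, under the knockout label, 7 of 24 Ms4a4b and 8 of 29 Ms4a6b UMIs. Ms4a6d rested on 7 and 16 UMIs, with an interval that includes equality (2.55-fold, 0.99 to 7.34). Within cells with Xist (20 and 82 cells) Ms4a4c was 1.05-fold (0.63 to 1.83), Ms4a6b 1.13-fold, Ms4a6c 0.86-fold and Ms4a4b 0.71-fold. None of these 4 was at least 2-fold higher in those cells. Phagocyte markers in migratory dendritic cells stood at 12.5% and 12.4% of the phagocyte level, and Ms4a7 at 0.80% and 0.45%.

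Within each library Ms4a4c, Ms4a6b, Ms4a6c and Ms4a6d were higher in phagocytes with more interferon-stimulated transcripts, and Ms4a7 over all phagocytes was not. Phagocytes were thinned to 1000 UMIs (1667 and 2292 cells, with 23 and 112 shallower cells left out) and divided by their UMIs of the list, which were left out of the total. In control, 37.4% of cells had 0 list UMIs and 1.80% had 11 or more, and in the library labelled knockout 12.7% and 17.7%. Control Ms4a4c stood at 120, 165, 302, 837 and 1221 CPM from 0 through 1 to 2, 3 to 5, 6 to 10 and 11 or more list UMIs. The other library gave 223, 285, 541, 1055 and 2442 CPM. The highest stratum was 10.1-fold (6.62 to 15.3) above the lowest in control and 10.97-fold (8.53 to 14.3) in the other library, with a higher value at each step in both.

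Ms4a6b was 4.51-fold (2.59 to 7.46) higher in the highest than in the lowest stratum in control and 3.73-fold (2.89 to 4.87) in the other library. For Ms4a6d the folds were 3.75 (2.40 to 5.68) and 3.47 (2.82 to 4.30), and for Ms4a6c 2.18 (1.502 to 3.08) and 2.65 (2.26 to 3.11). These also had a higher value at each step, but at 2000 UMIs per cell Ms4a4c and Ms4a6b in the library labelled knockout did not at every step. Within each C1q class the highest control stratum with enough cells was 6 to 10 list UMIs. Ms4a6d there was 1.72-fold (0.93 to 2.99) in C1q-low and 1.53-fold (0.72 to 2.94) in C1q-high cells, and in C1q-high cells Ms4a6b was 2.07-fold (0.88 to 4.40) and Ms4a6c 1.48-fold (0.89 to 2.38). Ms4a4c was 7.73-fold (5.10 to 11.6) in C1q-low and 5.91-fold (2.46 to 13.8) in C1q-high control cells. Ms4a7 stood at 273, 463, 526, 356 and 136 CPM in control and 503, 598, 530, 402 and 440 CPM in the other library, highest in the middle strata and not in the upper ones. The highest control stratum held 30 cells and 4 UMIs of Ms4a7. The pooled values mix the C1q classes: within C1q-low cells of the library labelled knockout Ms4a7 stood at 67.7 CPM (9 UMIs) in the lowest and 264 CPM (64 UMIs) in the highest stratum, 3.90-fold (1.93 to 8.92), and within C1q-high cells at 868 and 720 CPM, 0.83-fold (0.64 to 1.07). Ms4a4b in the library labelled knockout had 0 UMIs in the lowest stratum, where 3 UMIs would be 10.3 CPM, and 114 CPM (83.1 to 152) in the highest. In control it rested on 7 UMIs and 1 UMI. The 13 interferon-gamma-associated genes (such as Cxcl9 and Gbp2) were also used in place of the list. The highest stratum was then 6 to 10 UMIs in control (26 cells) and 11 or more in the other library (24 cells). There 2 members in control and 1 in the other library were at least 2-fold higher, and Ms4a4c was 2.67-fold and 2.82-fold higher. Under the knockout label Ms4a4c stood at 480, 1014, 1662 and 2770 CPM up to 6 to 10 UMIs, then 1353 CPM on 32 UMIs. In that library Ms4a6b stood at 369 CPM at 0 and 915 CPM at 6 to 10 UMIs. Ms4a6c was at 870 and 1842 CPM, Ms4a6d at 523 and 1352 CPM and Ms4a7 at 560 and 358 CPM.

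**Figure D4:**
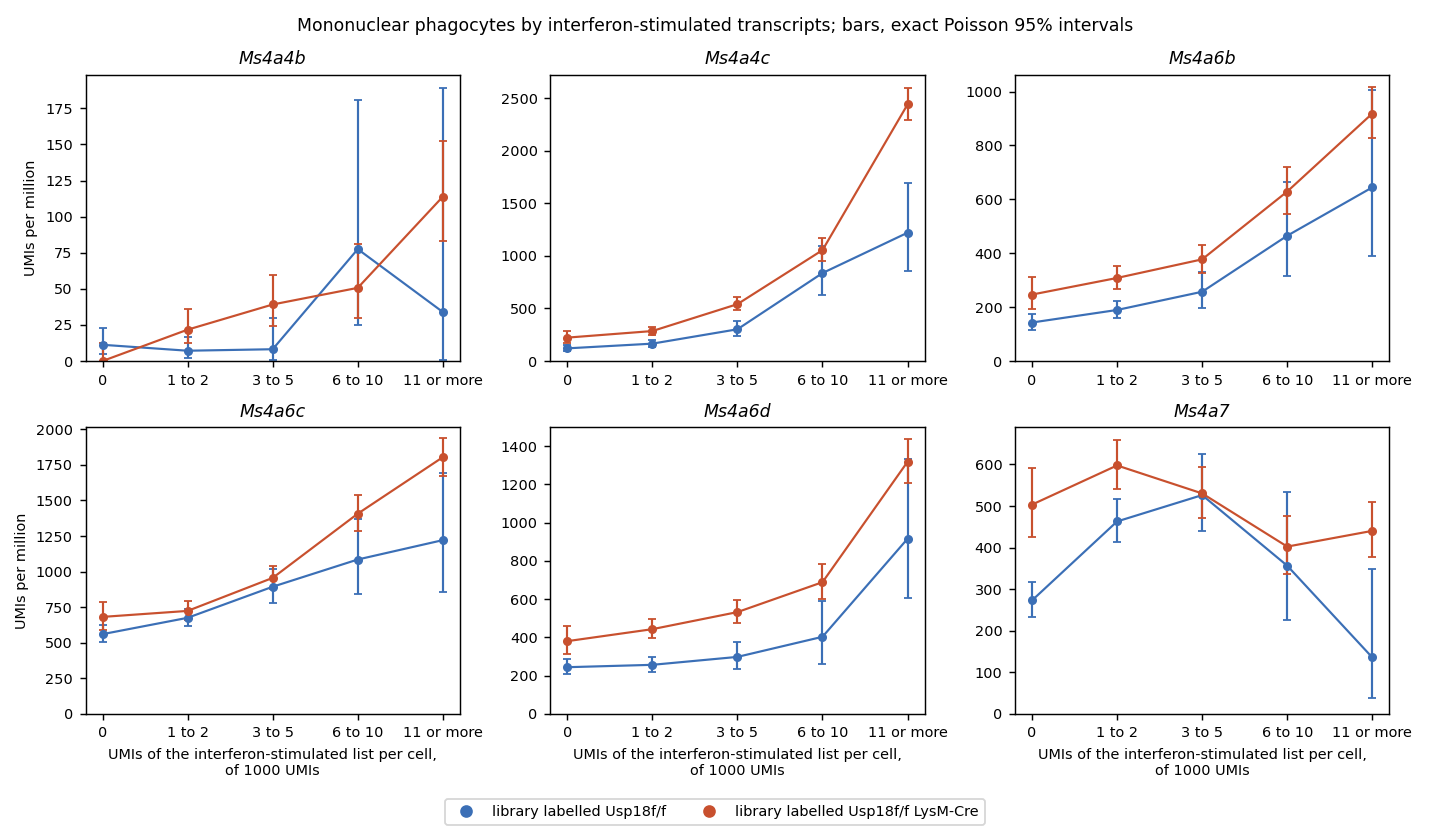
Level of 6 members (CPM, with exact Poisson 95% intervals) in mononuclear phagocytes thinned to 1000 UMIs and grouped by UMIs of interferon-stimulated genes, in the control library (blue) and the library labelled Usp18f/f LysM-Cre (red). Ms4a4c climbs from 120 to 1221 and from 223 to 2442, and Ms4a7 is not highest in the upper strata of either library.

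At equal interferon-stimulated UMIs a difference between the libraries remained in part. Ms4a4c in the library labelled knockout was 1.85-fold (1.31 to 2.61) the control level in cells with 0 list UMIs, 1.73-fold, 1.79-fold and 1.26-fold (0.94 to 1.71) in the next strata and 2.0-fold (1.43 to 2.87) at 11 or more. Ms4a6d was between 1.44-fold and 1.79-fold across strata, and Ms4a6b between 1.35-fold and 1.73-fold. Ms4a6c was within 1.07-fold at 1 to 5 list UMIs, with intervals that include 1. It was 1.22-fold (1.02 to 1.45) at 0, 1.30-fold (1.01 to 1.69) at 6 to 10 and 1.48-fold (1.06 to 2.13) at 11 or more. The highest stratum has no upper bound. Within C1q-high cells alone Ms4a4c was between 1.27-fold and 1.85-fold in the strata from 0 to 10 list UMIs, with intervals that include 1, and within C1q-low cells between 1.06-fold and 2.60-fold. In T cells Ms4a4b did not differ beyond counting error between 0 and 6 to 10 list UMIs, the highest stratum (27 and 37 cells). The levels were 1106 and 1454 CPM in control (1.32-fold, 0.92 to 1.83), and 1131 and 1034 CPM in the other library (0.91-fold, 0.63 to 1.30). At 1 to 2 and 3 to 5 list UMIs Ms4a4b stood at 1200 and 1176 CPM in control and 1235 and 1383 CPM in the other library. A trend over these strata was not tested. Ms4a6b in T cells was 2.15-fold (1.41 to 3.19) higher in the highest stratum in control, on 29 UMIs there, and 1.41-fold (0.92 to 2.10) in the other library. Ms4a4c in T cells did not climb across these strata as it did in phagocytes. It stood at 40.2, 35.2, 34.4 and 74.6 CPM in control, the last on 2 UMIs. The other library gave 99.5, 60.2, 94.9 and 0 CPM. In B cells the highest stratum was 3 to 5 list UMIs (127 and 59 cells). Relative to 0 list UMIs, Ms4a1 there was 1.47-fold (1.23 to 1.74) in control and 0.95-fold (0.68 to 1.33) in the other library. Ms4a4c there was 1.06-fold (0.66 to 1.65) and 1.45-fold (0.82 to 2.53).

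In C1q-low phagocytes Ms4a4c, Ms4a6b, Ms4a6c and Ms4a6d were higher in the library labelled knockout within cells of each sex, and in C1q-high phagocytes the ratios were unlike in cells of each sex, a difference that was not tested. In C1q-low phagocytes Ms4a4c stood at 320 and 1023 CPM in cells with Xist (263 and 952 cells, 3.20-fold, 2.91 to 3.52) and at 209 and 879 CPM in cells with Y-linked transcripts (436 and 95 cells, 4.19-fold, 3.70 to 4.75). Ms4a6b was 2.14-fold and 2.68-fold higher, Ms4a6c 1.47-fold and 1.93-fold, and Ms4a6d 2.54-fold and 1.54-fold. Ms4a4b was 2.45-fold (1.68 to 3.71) in cells with Xist and 1.81-fold (0.96 to 3.27) in cells with Y-linked transcripts. Ms4a7 in this class was 0.90-fold (0.78 to 1.03) in cells with Xist and 1.93-fold (1.44 to 2.57) in cells with Y-linked transcripts. In C1q-high phagocytes Ms4a4c stood at 109 and 483 CPM in cells with Xist (157 and 677 cells, 4.44-fold, 3.81 to 5.22) but at 86.7 and 114 CPM in cells with Y-linked transcripts (365 and 243 cells, 1.32-fold, 1.14 to 1.53). Usp18 gave the same pattern, at 14.9 and 93.6 CPM in C1q-high cells with Xist and 22.5 and 25.4 CPM in those with Y-linked transcripts. Lyz2 was at 17.1 and 4.77 CPM in these cells of the library labelled knockout, against 7972 and 7814 CPM in control, so Lyz2 was near 0 in both kinds of cell there. Ms4a6b in C1q-high cells was 1.48-fold with Xist and 1.19-fold with Y-linked transcripts, and Ms4a6d 1.78-fold and 1.14-fold.

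Within the library labelled knockout, C1q-high cells with Xist held 4.23-fold (3.79 to 4.72) more Ms4a4c than those with Y-linked transcripts, 1.53-fold more Ms4a6b, 1.51-fold more Ms4a6c and 1.57-fold more Ms4a6d. Ms4a7 was lower in them, at 756 against 1259 CPM (0.60-fold, 0.58 to 0.63). In control the order was the other way for Ms4a7, at 1080 CPM with Xist and 763 CPM with Y-linked transcripts (1.42-fold, 1.33 to 1.503), and Ms4a4c was 1.26-fold (1.04 to 1.51). Between the libraries Ms4a7 in C1q-high cells was therefore 0.70-fold (0.66 to 0.74) in cells with Xist and 1.65-fold (1.58 to 1.73) in cells with Y-linked transcripts, and its pooled ratio of 1.12 describes neither. Sex and host animal cannot be told apart in these pools.

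**Figure D5:**
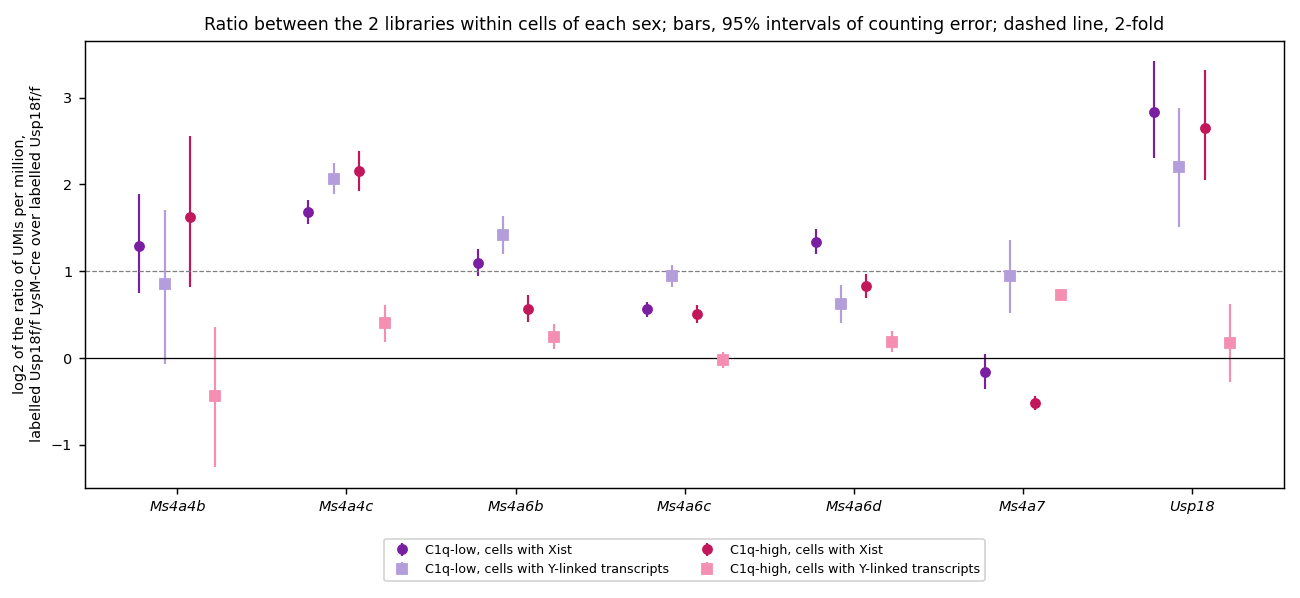
log2 of the ratio of CPM, library labelled Usp18f/f LysM-Cre over library labelled Usp18f/f, within phagocytes that hold Xist (circles) or Y-linked transcripts (squares), by C1q class, with 95% intervals of counting error. Ms4a4c is 4.44-fold in C1q-high cells with Xist and 1.32-fold in those with Y-linked transcripts, and Ms4a7 lies on opposite sides of 0 in them.

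The genes whose pattern was most like each member's were named from Pearson's r of log2(CPM + 5) over 20 points, the sums of 10 classes in 2 libraries. The points share libraries and depth, so r is a description. Ms4a1 went with Pax5 (r = 0.99), Ebf1 and Cd79a, B cell genes that were themselves among the markers of the B cell gate. Ms4a4b went with Skap1 (0.96), Lck (0.96) and Sh2d2a (0.95), which take part in T cell receptor signalling. Ms4a4c went with Gch1 (0.93), Msn, Casp1, Parp14 and Slfn2 (0.86), and Parp14 is a gene of the interferon-stimulated list. Ms4a6b went with S100a10 (0.92) and Pydc4 (0.90), an interferon-inducible pyrin-domain gene. Ms4a6c went with Arpc1b (0.95), Pnp and Tlr2, Ms4a6d with Tgm2 (0.96), Cd300ld and the mannose receptor Mrc1, and Ms4a7 with Abcc3 (0.98), Stab1, a scavenger receptor, and Tlr8. Among the members, Ms4a6c and Ms4a6d were most alike (0.905), and Ms4a4c was at 0.77 with both Ms4a6b and Ms4a6c and 0.28 with its neighbour Ms4a4b.

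The other family genes of the feature table (12) were low. Ms4a14 resembled Ms4a7, at 35.7 and 37.4 CPM in C1q-high against 4.69 and 6.88 CPM in C1q-low phagocytes (7.60-fold and 5.43-fold). Ms4a8a ran the other way, at 37.5 and 43.7 CPM in C1q-low against 12.5 and 11.7 CPM in C1q-high phagocytes (3.01-fold and 3.73-fold). Ms4a4a reached 14.2 CPM in C1q-low phagocytes of the library labelled knockout. The related Tmem176b, a cation channel gene of the same structural group, was highest in migratory dendritic cells (460 and 522 CPM). It was lower in C1q-high phagocytes of the library labelled knockout (187 and 72.7 CPM), opposite in direction to the members in that class with the sexes pooled. In T cells it was 2.31-fold (1.67 to 3.21) higher in that library, at 14.6 and 33.8 CPM.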

How the data were processed

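Live CD45+ cells of 2 pools of tumors were profiled, 1 library per group. The matrices the authors deposited hold UMI counts that were not normalized, made with Cell Ranger 3.0.1 on mm10, per the submitters' processing notes. Of the features, 98.7% have their identifier in GENCODE M21 (GRCm38, the mm10 assembly), from which positions and transcripts were taken. Analyses used Python 3.11.15, scanpy 1.11.5, scipy 1.17.1 and biopython 1.88.

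Barcodes under 200 genes or above 10% mitochondrial UMIs were removed, and the highest Scrublet scores were removed at 0.8% per 1000 barcodes (477 and 292 barcodes). A cell took the lineage with the highest share of its markers, with at least 2 distinct markers and no other lineage above 60% of that share. Each class had its own markers among its 10 leading genes and none of another class. The same markers placed the cells, so this is no independent check of the classes. UMIs were summed per class and library. CPM carries exact Poisson intervals, ratios carry exact conditional binomial intervals and shares carry Clopper-Pearson intervals. The limit for a count of 0 is 3 counts. Calculations were tested on simulated data. Genes that could be named were the members, other Ms4a and Tmem176 genes, markers, the interferon lists and, per member, the 5 genes with the highest Pearson correlation. The members, lists and rules were chosen with earlier results of these data known. Alternatives covered pseudocount, filters, gates, clusters, doublets, sex, thinning and free RNA, and 2 left-out clusters were added after seeing the data.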

Additional observations from a re-analysis of the deposited data

Results flagged for a closer look

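Ms4a7 stood on opposite sides of no difference in cells of each sex. In C1q-high phagocytes its log2 ratio, library labelled knockout over control, was -0.51 where Xist was counted and 0.72 where Y-linked transcripts were. Over all mononuclear phagocytes the values were -0.35 and 1.17. The counting intervals exclude equality in each, but the difference between the sexes was not tested, because each pool is 1 sample and the animals behind the cells are unknown.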

How the results depend on the processing

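No paired analysis was possible because each group has 1 library. With 1 pool per group the intervals say nothing of the spread between mice, few UMIs limit several dendritic cell values, and cells with neither sex transcript are absent from the values within each sex.

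Of 45 recomputed counts (members at least 2-fold higher, and members whose highest class in each library stayed as in the main setting), 35 stayed within 1.5 times the reported count. In the C1q-high class the count was 2 in cells with Xist, with 1 or 2 UMIs required, and 2 after 5% free RNA was subtracted, and it was 0 in cells with Y-linked transcripts under both requirements. In the C1q-low class it was 2 in cells with Y-linked transcripts under both requirements. In the highest interferon stratum the control count was 2 with the interferon-gamma-associated list and 2 in C1q-high cells alone. The other library's count was 1 with the interferon-gamma-associated list, in a highest stratum of 24 cells.

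Log2 ratios turned sign as follows. In cells with Xist (1 UMI, then 2 UMIs required) Ms4a7 was at -0.15 and -0.20 in C1q-low and -0.51 and -0.50 in C1q-high phagocytes, and in T cells Ms4a4b was at -0.094 and -0.053 and Ms4a6b at -0.079 and -0.064. In C1q-high cells with Y-linked transcripts Ms4a4b was at -0.27 and -0.14 and Ms4a6c at -0.024 and -0.073. Ms4a4c was at -0.61 in T cells with 2 Y-linked UMIs and at -0.26 in thinned NK cells. Ms4a4b across interferon-gamma strata of the library labelled knockout was at -2.74, on 0 UMIs in the highest stratum. The cause was not tested. Of 403 comparisons for single members, 282 stayed within the counting interval, 106 moved and 15 turned sign from a reported interval without equality. A further 10 turned sign where the reported interval included equality, among them Ms4a1 in B cells (0.45 with at most 5% mitochondrial UMIs, 0.13 with Y-linked transcripts) and Ms4a4b in thinned NK cells (0.18).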
